A study of Mus musculus with 6 samples.

Results

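The genes described here are 6 members of the mouse PYHIN family, the Ifi200 genes Ifi202b, Ifi203, Ifi204, Ifi205 and Mndal together with Aim2. They were chosen by symbol, and all 6 were found among the 42303 rows of the RNA-seq count table. Of the 6, 5 had at least 50 counts over both RNA-seq libraries and could be compared, and Ifi202b had none. PYHIN proteins carry a pyrin domain, which binds other pyrin domains, a HIN domain, which binds DNA, or both. The genes form 1 cluster on mouse chromosome 1, and many of them are induced by interferon. Aim2 binds double-stranded DNA in the cytosol and, through the adaptor Pycard (ASC), activates caspase 1, which releases interleukin 1 beta and interleukin 18.

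The cells were microglia, the resident macrophages of the central nervous system, taken at peak disease in experimental autoimmune encephalomyelitis (EAE) and from naive mice. EAE, a mouse model of multiple sclerosis, was induced with myelin oligodendrocyte glycoprotein peptide 35-55 in Ccr2rfp/+::Cx3cr1gfp/+ mice aged 24 to 28 weeks, so 1 copy of Ccr2 and 1 copy of Cx3cr1 carried a reporter. Peak was reached on the second day without a higher clinical score after steady worsening. The labels give the C57Bl/6 background for both groups, describe no other mice for the naive group and give no age for it. Cells from brains and spinal cords were separated on a density gradient and sorted on F4/80 and CD45, and 30 mice were pooled per condition. A single RNA-seq library was made from each pool, the peak one with 36561934 and the naive one with 31282093 counts. Methylated DNA was captured with a methyl-CpG binding domain and sequenced (MiGS, MBD-isolated genome sequencing) in 2 libraries per condition. Nothing in the labels says whether those 2 came from separate pools of mice, so p-values measure only the spread between these libraries, which may be technical.

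Sorted cells of the 2 conditions differed in their marker genes, which bears on every RNA value given here. For comparison, 11.6% of all 14367 compared genes were at least 2-fold higher at peak and 9.35% were at least 2-fold lower. Of 13 homeostatic microglia genes, 3 were at least 2-fold lower (5 with library totals, 6 with upper quartile scaling) and 0 higher in the peak library, and their summed level was 31115 CPM (counts scaled to library size) at peak and 46918 CPM in naive cells. Of 11 monocyte markers, 8 were higher and 0 lower, with a summed level of 1204 CPM at peak and 129 CPM in naive cells. Fn1 (39.9-fold higher) made up most of the sum at peak, and without it the list summed to 193 CPM at peak and 104 CPM in naive cells. Ly6c2 was 56.0-fold and Plac8 12.5-fold higher, and the 3 compared markers that were neither higher nor lower had ratios of 1.10 to 1.78. T cell markers summed to 11.5 CPM at peak and 4.18 CPM in naive cells, and 4 of the 9 were at 0 in the naive library. Neutrophil markers summed to 20.8 CPM at peak and 17.3 CPM in naive cells, with 2 of 6 higher and 2 lower. Border macrophage markers summed to 289 CPM at peak and 350 CPM in naive cells, with 1 of 7 higher and 2 lower. Without Mrc1 the direction of that sum turned, with 133.8 CPM at peak and 120.5 CPM in naive cells. Dendritic cell, B cell, astrocyte and endothelial markers summed to 146, 15.8, 287 and 58.3 CPM at peak and to 393, 23.8, 483 and 128 CPM in naive cells. Without Fscn1 the dendritic cell markers summed to 8.38 CPM at peak and 11.9 CPM in naive cells, and without Cd79b the B cell markers to 0.818 CPM at peak and 3.07 CPM in naive cells. Among astrocyte markers 1 of 5 was higher and 2 were lower, and all 5 endothelial markers were lower. The part of other cells in the differences of the Ifi200 genes was not tested. In these pooled cells, a change in the share of cells that make a transcript and a change in its amount per cell cannot be told apart.

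The members lie between chr1:173349547 and chr1:174031755 (GRCm38, called mm10 in the submitters' processing notes). In RefSeq's annotation of that build Aim2 comes first (chr1:173349547-173466040), followed by Ifi204 (chr1:173747293-173767069), Mndal (chr1:173857215-173880382) and Ifi203 (chr1:173920400-173942866). Ifi202b (chr1:173962569-173982844) and Ifi205 (chr1:174011998-174031755) close the cluster. The interval annotated for Aim2 also overlaps Cadm3, which had 21 counts at peak and 18 in naive cells. The other 5 intervals overlap no other annotated gene.

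The promoters of 4 members are shown because some hold and others lack the core of an interferon-stimulated response element, a sequence found in promoters of many interferon-induced genes. Each sequence is from RefSeq (GRCm38.p6) and runs from 250 bases before to 50 bases after the annotated start. Ifi204 has no entry in that table. Capitals mark matches on either strand to the element's core (GAAA, any 2 bases, GAAA) or to TTC, any 3 bases and GAA, the core of the gamma-activated site, an element of genes induced by interferon gamma. No match to one motif overlapped a match to the other. The windows are chr1:174031706-174032005 (minus strand) for Ifi205, chr1:173880138-173880437 (minus strand) for the first of the 2 Mndal starts, chr1:173420354-173420653 (plus strand) for Aim2 and chr1:173982795-173983094 (minus strand) for Ifi202b.
Ifi205: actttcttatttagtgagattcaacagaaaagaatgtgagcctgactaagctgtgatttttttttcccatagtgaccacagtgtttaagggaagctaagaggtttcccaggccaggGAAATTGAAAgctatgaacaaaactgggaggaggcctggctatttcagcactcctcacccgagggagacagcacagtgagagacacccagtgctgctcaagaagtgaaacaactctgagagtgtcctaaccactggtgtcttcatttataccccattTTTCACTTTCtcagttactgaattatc
Mndal: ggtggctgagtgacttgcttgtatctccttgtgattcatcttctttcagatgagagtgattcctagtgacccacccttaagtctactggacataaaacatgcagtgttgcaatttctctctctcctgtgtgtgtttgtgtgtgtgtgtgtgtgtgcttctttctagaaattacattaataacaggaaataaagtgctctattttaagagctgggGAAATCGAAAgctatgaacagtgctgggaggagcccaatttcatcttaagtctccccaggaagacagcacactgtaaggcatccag
Aim2: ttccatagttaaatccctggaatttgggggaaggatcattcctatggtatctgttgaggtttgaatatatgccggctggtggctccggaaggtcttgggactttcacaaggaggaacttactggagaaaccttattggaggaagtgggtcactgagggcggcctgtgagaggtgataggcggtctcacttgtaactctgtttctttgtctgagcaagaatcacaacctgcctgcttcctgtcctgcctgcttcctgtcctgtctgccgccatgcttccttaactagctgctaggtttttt
Ifi202b: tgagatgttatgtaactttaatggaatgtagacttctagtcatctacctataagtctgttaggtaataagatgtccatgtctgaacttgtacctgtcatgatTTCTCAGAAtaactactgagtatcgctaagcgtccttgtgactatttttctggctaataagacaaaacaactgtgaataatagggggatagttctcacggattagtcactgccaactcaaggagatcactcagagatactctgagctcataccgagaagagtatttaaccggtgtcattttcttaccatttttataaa

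Ifi205 held the interferon-stimulated element core in 2 places, beginning 134 bases before the start and, on the strand opposite to the gene, 23 bases after it. The first Mndal start had it 36 bases before the start, and the second, on the strand opposite to the gene, 54 bases before. For Ifi203, 1 of the 2 starts had it, 35 bases before. In the Aim2 and Ifi202b windows the core was not found, and the closest match in each had 1 mismatch, counted from 1 at the first base of the core as it reads on its strand (A3C in Aim2, A9C in Ifi202b). Such a near match was common, being present in 35.4% of all 32851 promoters. The exact core was present in 3.44% of these promoters and, counted by gene, in 3.99% of 27025 genes. Ifi202b alone among the 12 cluster genes with a promoter entry had the gamma-activated core, which 9.55% of genes have.

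The other genes of the cluster carried the same core near their starts, and the 40 bases around it are shown to compare members with their neighbours. Of the 7 neighbouring Ifi200 genes with a promoter entry, 6 had the core and Ifi209 did not. With the members, that made 9 of 12 cluster genes. The stretches are chr1:174031865-174031904 (Ifi205), chr1:173913059-173913098 (Ifi211), chr1:173741826-173741865 (Ifi207), chr1:173942503-173942542 (Ifi203), chr1:173536012-173536051 (Ifi214) and chr1:173491334-173491373 (Ifi206), all on the minus strand.
Ifi205: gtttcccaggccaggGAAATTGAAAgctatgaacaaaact
Ifi211: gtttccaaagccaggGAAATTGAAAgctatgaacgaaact
Ifi207: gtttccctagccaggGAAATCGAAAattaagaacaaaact
Ifi203: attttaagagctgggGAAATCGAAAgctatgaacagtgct
Ifi214: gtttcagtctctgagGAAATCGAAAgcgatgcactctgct
Ifi206: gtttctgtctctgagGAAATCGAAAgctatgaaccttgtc

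The Ifi203 stretch is the same, base for base, as the corresponding stretch of Mndal. Over 289 aligned bases, the promoters of Mndal and Ifi203 were 97.6% identical. Ifi211 and Ifi205 were 94.0% identical over 201 aligned bases, and Ifi206 and Ifi208 99.3% over 281. The Aim2 window was at most 61.3% and the Ifi202b window at most 65.4% identical to a window of any other cluster gene. Several of these windows are close copies of each other, so shared elements are not independent of each other, and a match in letters does not show that a factor binds.

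At the peak of EAE, Ifi204 and Ifi205 had far more RNA than in naive cells, Mndal had somewhat more, Ifi203 and Aim2 differed by less than 2-fold, and Ifi202b was not detected. Of the 5 members that could be compared, 3 were at least 2-fold higher and 0 were lower, where 11.6% of 14367 compared genes were higher and 9.35% lower by the same rule. The members' median log2 ratio was 1.18, against -0.0027 for all compared genes. With 1 library per condition there is no replicate check and no test. Intervals are exact (Clopper-Pearson) 95% intervals for counting error only, and ratios are of counts scaled by TMM with 0.5 added on the log2 scale.

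**Figure D1:**
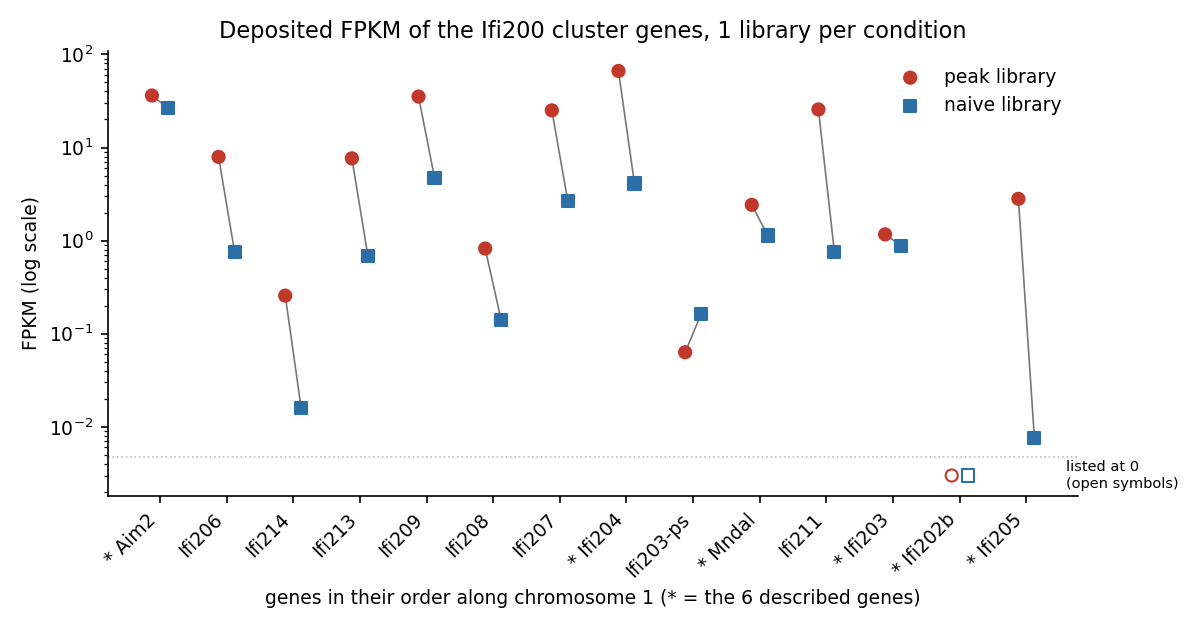
Deposited FPKM (fragments per kilobase of gene, scaled to sequencing depth, log scale) of the 14 cluster genes in the peak library (circles) and the naive library (squares), in order along chromosome 1. Ifi204 had the highest FPKM at peak (66.4) and Aim2 in naive cells (26.4), and Ifi202b is listed at 0 in both.

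Ifi204 encodes p204, a nuclear and cytosolic protein linked in mouse macrophages to DNA sensing and the induction of interferon beta. It had 8640 counts in the peak library and 457 in the naive library. Its level was 66.4 FPKM at peak and 4.10 FPKM in naive cells. The ratio was 17.2-fold (log2 ratio 4.10, interval 15.7 to 18.9), higher than that of 98.5% of compared genes. The 2 genes nearest to it in the 2 libraries were Ifit2, an interferon-induced gene (9013 counts at peak and 425 in naive cells), and Mki67, a marker of dividing cells (10076 counts at peak and 469 in naive cells). They lay 0.12 and 0.22 away on the log2 scale, in a pool of 11696 genes.

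Ifi205 encodes p205, tied in mouse macrophages to transcription of the gene for the adaptor ASC. It had 429 counts at peak and 1 in naive cells, or 2.81 FPKM at peak and 0.00765 FPKM in naive cells. Ifi205 was therefore close to absent from the naive library. At peak it ranked 9777 by FPKM among 21489 genes with counts. The ratio of 261-fold has an interval from 69.7 to 15455, because it rests on a single naive count. The nearest gene was F10, listed here among the monocyte markers, with 388 counts at peak and 1 in naive cells. Whether Ifi205 and F10 RNA came from the same cells was not tested. The next, Gpr15, had 204 counts at peak and 2 in naive cells and lay 1.30 away on the log2 scale.

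Mndal and Ifi203 encode interferon-inducible nuclear proteins. Mndal had 305 counts at peak and 122 in naive cells, a 2.27-fold difference (log2 ratio 1.18) whose interval, 1.84 to 2.83, includes ratios below 2. Ifi203 had 286 counts at peak and 185 in naive cells. Its ratio of 1.41 (log2 ratio 0.49, interval 1.17 to 1.70) stayed below 2-fold over the whole interval, and the intervals of the 2 genes do not overlap. Since the 2 genes are close copies and the sources used here do not give the treatment of reads that fit several places, their counts may be partly exchanged. Summed with the pseudogene Ifi203-ps (5 counts at peak and 11 in naive cells), they gave 596 counts at peak and 318 in naive cells, a ratio of 1.70 (interval 1.49 to 1.96). Zfp946 and Zbtb25 lay nearest to Ifi203, and Tmem156 and Ppp3cc nearest to Mndal.

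Aim2 had 4632 counts at peak and 2896 in naive cells, or 36.2 FPKM at peak and 26.4 FPKM in naive cells. The ratio was 1.46 (log2 ratio 0.54, interval 1.39 to 1.53), higher than that of 78.2% of compared genes but short of 2-fold. Aim2 thus had by far the most RNA of the members in naive cells and a much smaller difference than Ifi204. The nearest genes were Usp5, a deubiquitinase gene (4607 counts at peak and 2927 in naive cells), and Vamp8 (4569 counts at peak and 2943 in naive cells).

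Ifi202b encodes p202, which has HIN domains without a pyrin domain and inhibits Aim2. It had 0 counts in the peak library and 0 in the naive library. A count of 0 allows up to 3 counts, which is 0.0846 CPM at peak and 0.0930 CPM in naive cells. Low expression of Ifi202b is known for the C57BL/6 background, in contrast to NZB mice. A 0 in the table does not by itself show absence of RNA. Trex1, an exonuclease gene of macrophages, was also listed at 0 in both libraries. The interval of Trex1 overlaps a read-through gene in RefSeq, whereas that of Ifi202b overlaps no other gene. How reads that fit several genes were counted was not tested.

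In order of their FPKM, the members at peak ran Ifi204, Aim2, Ifi205, Mndal, Ifi203 and Ifi202b. Counting intervals of Ifi205 (2.55 to 3.09 FPKM) and Mndal (2.16 to 2.71 FPKM) overlapped, and those of the other neighbours did not. In naive cells the order was Aim2, Ifi204, Mndal, Ifi203, Ifi205 and Ifi202b. There the intervals of Mndal (0.941 to 1.35 FPKM) and Ifi203 (0.759 to 1.02 FPKM) overlapped.

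**Figure D2:**
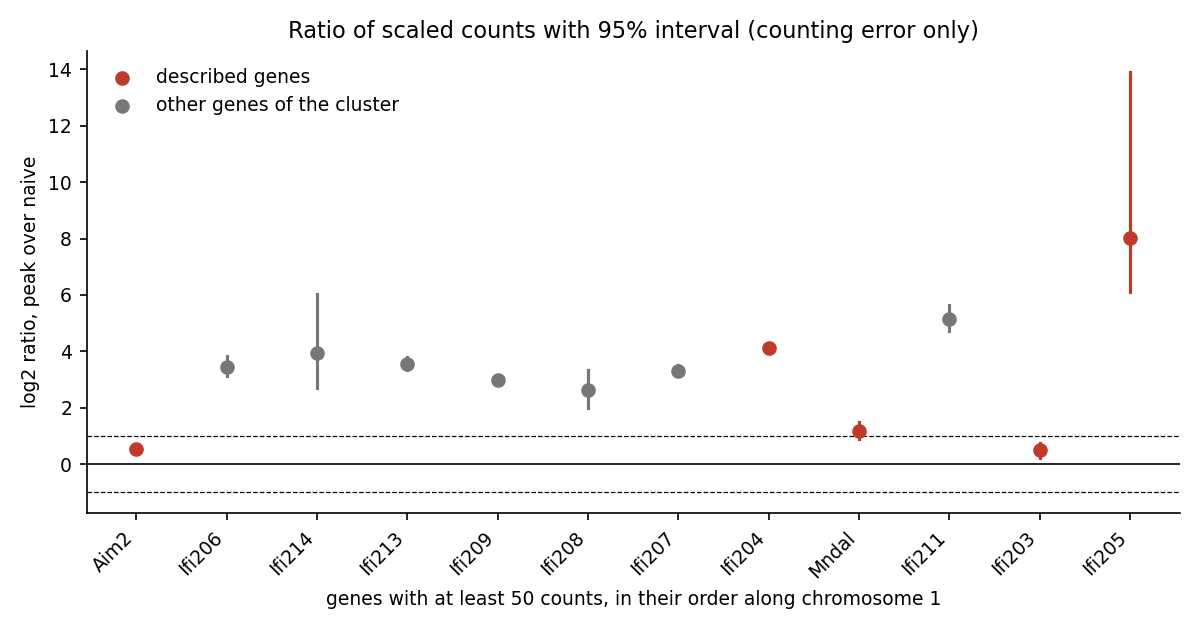
Log2 ratio of scaled counts, peak over naive, of the 12 cluster genes with at least 50 counts, with 95% intervals for counting error only. The dashed lines mark 2-fold in both directions; Aim2 (0.54) and Ifi203 (0.49) lie between them, and Ifi205 (8.03) has the widest interval.

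The remaining Ifi200 genes of the cluster with enough counts were higher at peak. Of 8 in the table, 7 had at least 50 counts, and 7 of 7 were at least 2-fold higher (background 11.6%), with a median log2 ratio of 3.46. Ifi208, Ifi211 and Ifi214 had fewer than 50 naive counts and reached the minimum through the peak library, which favours a call of higher. With a minimum of 200 counts, 5 of 5 were higher. The pseudogene Ifi203-ps was below the minimum of 50 counts, and with a minimum of 10 counts it was called lower (log2 ratio -1.20). Ifi211 had 1673 counts at peak and 42 in naive cells (35.8-fold, interval 26.7 to 50.5). Ifi209 had 4570 counts at peak and 526 in naive cells (7.90-fold). Ifi207 had 3188 counts at peak and 290 in naive cells (9.99-fold). The other 4 lay between 6.14-fold (Ifi208, 158 counts at peak and 23 in naive cells) and 15.5-fold (Ifi214, 76 counts at peak and 4 in naive cells), with Ifi206 at 11.03-fold and Ifi213 at 11.8-fold. At peak the interval of Aim2 (35.1 to 37.2 FPKM) overlapped that of Ifi209 (34.2 to 36.3 FPKM), although in naive cells Aim2 had 26.4 FPKM and Ifi209 4.74 FPKM.

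With the stricter requirement that the whole interval lie beyond 2-fold, 2 of the 5 members remained, Ifi204 and Ifi205, where 8.83% of compared genes met it. Both also exceeded 4-fold, as 5.02% of compared genes did. Reads may be split between close copies, and the sum over the cluster does not depend on the split if each read is counted once. Sums would still depend on whether reads that fit several genes were dropped or counted repeatedly, which the sources used here do not give. All 14 genes together had 26752 counts at peak and 4776 in naive cells, a 5.10-fold difference (interval 4.94 to 5.26). Without Aim2 the sums were 22120 counts at peak and 1880 in naive cells (10.7-fold, interval 10.2 to 11.2). Ifi205 and Ifi211, whose promoters are alike, together had 2102 counts at peak and 43 in naive cells (44.0-fold, interval 32.9 to 61.7).

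The make-up of the cluster's RNA was therefore different in the 2 libraries. Aim2 made up 17.1% of the summed FPKM of the 14 genes at peak and 62.2% in naive cells. Ifi204 made up 31.4% at peak and 9.66% in naive cells. Ifi211 made up 12.1% at peak and 1.77% in naive cells. Ifi205, Mndal and Ifi203 together stayed small, at 1.33%, 1.15% and 0.551% at peak and at 0.0180%, 2.67% and 2.08% in naive cells, in that order of genes.

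**Figure D3:**
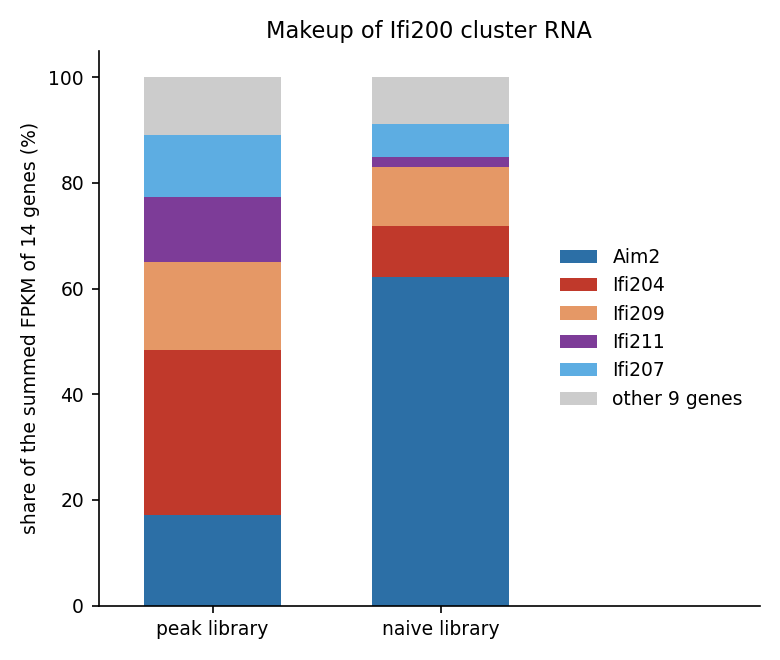
Share of the summed FPKM of 14 cluster genes (in percent) taken by each gene in the peak library (left bar) and the naive library (right bar). Aim2 takes 17.1% at peak and 62.2% in naive cells, and Ifi204 31.4% at peak and 9.66% in naive cells.

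Genes listed with the Aim2 inflammasome, which include cytokines, their inhibitors and other regulators, were higher at peak in part. Of 15 measured, 9 were at least 2-fold higher and 0 lower (background 11.6%, median log2 ratio 1.10). With upper quartile scaling 7 were, and Pycard and Gsdmd were no longer called. Pycard, the adaptor, had 6931 counts at peak and 2950 in naive cells (2.14-fold). Casp1, the protease, had 2613 counts at peak and 1420 in naive cells (1.67-fold), short of 2-fold like Aim2 itself. Gsdmd, which forms the membrane pore, was 2.01-fold higher (interval 1.93 to 2.09). Genes for cytokines and for proteins that regulate the pathway spanned a wide range. Il1b had 4639 counts at peak and 437 in naive cells (9.65-fold), whereas Il18 had 992 counts at peak and 612 in naive cells (1.48-fold). Il1rn, the interleukin 1 receptor antagonist, was 41.5-fold higher and Il18bp, which binds interleukin 18, was 17.0-fold higher. Gbp2 and Gbp5, guanylate-binding proteins that expose bacterial DNA to Aim2, were 75.1-fold and 9.83-fold higher, and Pstpip1, which binds the pyrin protein, was 13.6-fold higher. Trim11, Panx1 and Ninj1 had ratios of 1.16, 1.26 and 1.13, and Casp8 had a log2 ratio of -0.26.

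Genes of other cytosolic DNA sensing, which include sensors, kinases, transcription factors and enzymes that degrade nucleic acids, varied. Of 15 compared, 5 were at least 2-fold higher and 0 lower, against 11.6% and 9.35% of all compared genes (median log2 ratio 0.74). Zbp1, a sensor of nucleic acids in the Z form, was 53.5-fold higher, the kinase gene Ikbke 25.04-fold and the transcription factor gene Irf7 15.1-fold. Samhd1, which degrades nucleotides, was 3.49-fold higher and Enpp1, which degrades the messenger cGAMP, 2.66-fold. Cgas, which makes that messenger, had 1934 counts at peak and 895 in naive cells, a ratio of 1.97 (interval 1.82 to 2.13) that includes 2-fold. Tmem173, which encodes STING, had 13356 counts at peak and 13178 in naive cells, a log2 ratio of -0.12.

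Genes of the interferon signalling that induces Ifi200 genes were higher in part. Of 16 genes of interferon signalling, 6 were at least 2-fold higher and 1 lower, against 11.6% and 9.35% of all compared genes (median log2 ratio 0.43). Stat2, a transcription factor of the type I interferon response, had 9719 counts at peak and 1647 in naive cells (5.37-fold). Irf9, its partner, had a ratio of 1.34. The negative regulators Socs1, Usp18 and Socs3 were 8.03-fold, 7.25-fold and 6.74-fold higher, and Irf1 was 5.18-fold higher. Ifngr1, a receptor chain for interferon gamma, was the 1 lower gene, with 18195 counts at peak and 34016 in naive cells. Of the 11 interferon genes in the table, 8 were at 0 in both libraries. Ifnb1 had 32 counts at peak and 0 in naive cells. Ifng had 16 counts at peak and 1 in naive cells, and Ifna2 had 1 count at peak and 0 in naive cells.

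**Figure D4:**
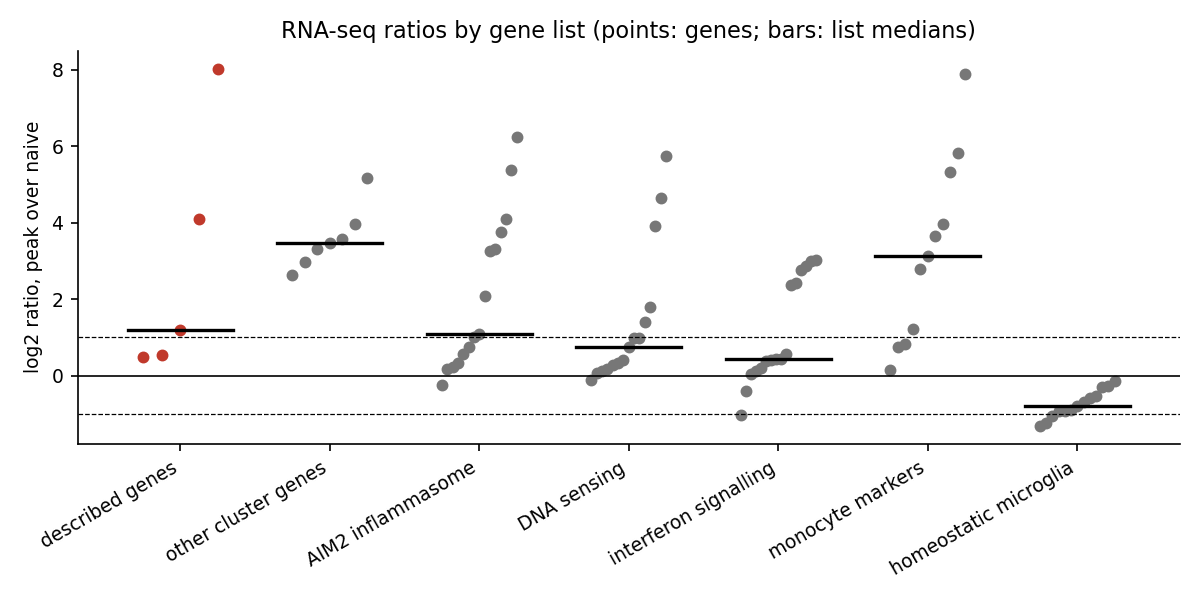
Log2 ratio of scaled counts, peak over naive, of each compared gene (points) by list, with the list's median (bars); dashed lines mark 2-fold. The 7 other cluster genes with at least 50 counts (median 3.46) lie above 2-fold. The 5 described genes (red, median 1.18) lie on both sides of it.

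Genes next to the cluster on the chromosome had few counts. Of 15 in the table, 2 had at least 50 counts. Ackr1 had 61 counts at peak and 9 in naive cells (5.89-fold, interval 3.05 to 14.1), and Dusp23 had 47 counts at peak and 31 in naive cells (1.37-fold). The olfactory receptor gene Olfr433 had 16 counts at peak and 0 in naive cells.

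At none of the members was captured methylated DNA called different between peak and naive libraries by the test used. Signal was summed over each gene and 1000 bases on either side and compared with limma (two-sided, Benjamini-Hochberg adjustment). Over all 35066 gene spans tested, 0 were higher and 0 lower at an adjusted p under 0.05 (0% in each direction), with 1094 at an unadjusted p under 0.05. The lowest limma adjusted p of any span was 0.961, so the lack of a call at a member does not show equal signal. The edgeR quasi-likelihood test and DESeq2 on recovered reads also gave 0, with 1204 and 1454 at an unadjusted p under 0.05. Over all spans the median signal was 10.5 and 8.51 per kb in the 2 peak libraries and 8.72 and 9.22 per kb in the 2 naive libraries.

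Every member lay below the median of its library except Mndal in 1 naive library. The Aim2 span covers its whole annotated interval, which begins at chr1:173349547, well before the promoter window shown above, and overlaps Cadm3. Aim2 had 2.36 and 1.58 signal per kb in the peak libraries and 1.37 and 1.69 per kb in the naive libraries. These values overlap, and the log2 change was 0.34 (SE 0.45, limma adjusted p = 0.961). Mndal had 3.49 and 5.06 per kb in the peak libraries and 4.96 and 9.55 per kb in the naive libraries, which also overlap (log2 change -0.71, SE 0.52, limma adjusted p = 0.961).

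Ifi203 was the member whose libraries separated. It had 3.01 and 2.04 signal per kb in the peak libraries and 0.882 and 0.380 per kb in the naive libraries, so both peak libraries were above both naive ones. Among all spans, 14.3% were separated in that direction and 14.7% in the other. The log2 change was 2.02 (SE 0.83) and the limma adjusted p = 0.961. It rests on 89 and 61 reads in the peak libraries and 19 and 8 in the naive libraries, summed over 50-base windows, so that a fragment enters several times.

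Ifi204, which had the most member RNA at peak, carried the least captured DNA per kb of the members by the mean of either condition. It had 0.152 and 0.300 per kb in the peak libraries and 0.104 and 0.480 per kb in the naive libraries, from at most 9 reads in any library. Ifi205 had 0.495 and 0.901 per kb in the peak libraries and 0.678 and 0.747 per kb in the naive libraries. Ifi202b had 1.12 and 0.696 per kb in the peak libraries and 0.255 and 2.71 per kb in the naive libraries. Values of the 2 conditions overlapped in all 3, and the log2 changes were -0.10 (SE 1.83), -0.08 (SE 1.08) and 0.03 (SE 1.13), in the order Ifi204, Ifi205 and Ifi202b. With errors of this size a difference of several fold at these genes was not detectable.

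**Figure D5:**
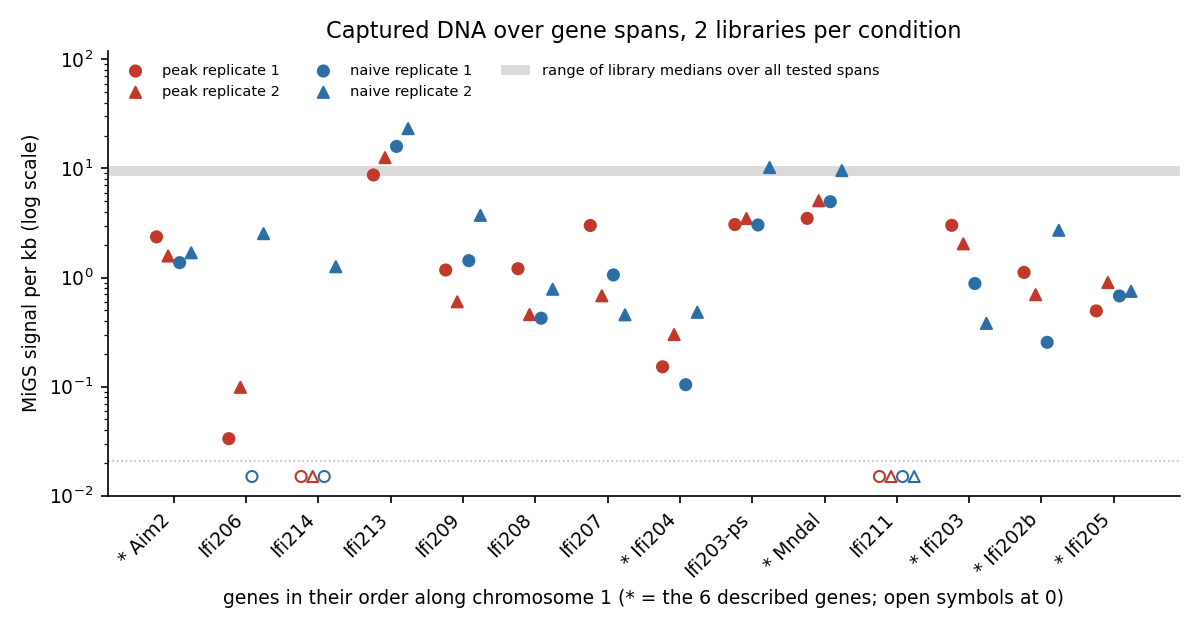
MiGS signal per kb (log scale) over each cluster gene extended by 1000 bases, in 2 peak libraries (left pair of symbols) and 2 naive libraries (right pair). The grey band spans the library medians over all tested gene spans (8.51 to 10.5 per kb), and open symbols are at 0.

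Among the neighbouring Ifi200 genes, Ifi213 had the most signal, with 8.71 and 12.6 per kb in the peak libraries and 15.9 and 23.2 per kb in the naive libraries. Both peak libraries were below both naive ones, and the log2 change was -0.87 (SE 0.40, limma adjusted p = 0.961). Ifi209 separated in the same direction, with 1.17 and 0.599 per kb in the peak libraries and 1.43 and 3.72 per kb in the naive libraries (log2 change -1.40, SE 0.88, limma adjusted p = 0.961). Ifi211 had 0 reads in all 4 libraries. Over the whole cluster, a stretch of 682 kb, the signal was 2.02 and 2.69 per kb in the peak libraries and 2.30 and 6.98 per kb in the naive libraries. These overlap, and with 2 libraries on each side an exact two-sided permutation test cannot go below p = 0.33. The mean difference, -2.28 per kb, rests on the second naive library: without that library it was 0.0509 per kb. The strongest pile-up had its top window at chr1:173712151-173712200, near the predicted gene Gm7871, with 26 and 157 reads in the peak libraries and 55 and 500 in the naive libraries. Without that window and the 500 bases on either side of it the difference was -0.85 per kb.

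At the members' promoters, no reads were captured. All 5 members with a promoter entry had 0 reads in that window in each of the 4 libraries. This is common, since 82.5% of 31396 promoters on chromosomes 1 to 19 had no reads in any library, and 87.7% of those with at most 5 CpG sites. The members' windows held 1 to 5 CpG sites (5 in Aim2 and Ifi202b, 1 in Ifi205 and Mndal), against a median of 7, and capture needs methylated CpG sites, so 0 reads here do not show that the sites were unmethylated. Within 2 kb of the start, Aim2, Mndal and Ifi203 again had 0 reads in all libraries, which held for 28.7% of promoters. Ifi202b reached 8 reads in 1 window in the first peak library and 1 in the second, with 0 in both naive libraries. Ifi205 reached 5 reads in the second naive library and 0 in the other three. Beyond these 2 kb, windows with at least 5 reads in every library lay inside Mndal at chr1:173866551-173866800. In the interval annotated for Aim2 they lay at chr1:173417301-173417500, before the start used here, and at chr1:173443651-173443750, after it. No other member had such a window.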

How the data were processed

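The members and gene lists were chosen with earlier results of these data known, and naming followed a set rule: all members and cluster genes, up to 6 genes with the largest ratios per other list plus those with a needed role, up to 3 per cell type list, and the 2 nearest genes per member. Monocyte and T cell genes, among others, were listed as markers of other cells.

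The deposited RNA-seq table gives raw counts for each gene, per the file headers. The FPKM values next to them were computed by the authors. Libraries were stranded and depleted of ribosomal RNA, per the labels' protocols, and the use of strand in counting was not given in the sources used here. Tools named in the submitters' processing notes, without roles or versions, are Bowtie2, TopHat, featureCounts and edgeR, and the build is mm10. Rows without a symbol, 506 of 42303, held 0.0647% of peak and 0.0573% of naive counts and stayed out of lists and named genes. Ratios used TMM (edgeR 4.0.16) on genes whose 2 libraries held 50 counts or more in sum, and exact intervals used scipy 1.17.1.

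In the deposited MiGS files each 50-base window has a signal value. All values (100% within 0.001) were whole reads times a constant per library, and a window absent from a file was taken as 0 reads. Sums over windows count fragments several times. RefSeq genes (GRCm38.p6) of chromosomes 1 to 19, extended by 1000 bases, were tested with limma 3.58.1 (variance trend) on log2(signal + 1) where they had at least 20 recovered reads, without a replicate block. Log2 changes are on that scale and understate those of low spans. Count tests with edgeR and DESeq2 1.42.0 on recovered reads were alternatives. The steps were run on simulated data, for RNA-seq with counting error only. Results of those runs are not reported here, and no conclusion about the MiGS test is drawn from them. Motifs were searched on both strands, and promoter identity came from pairwise alignment (Biopython 1.88). Intervals cover counting error only. A planned comparison of protein sequences was not run, and some genes that the naming rule covers are not reported here. Alternatives covered scaling, count minimums, pseudocounts, the call rule, the span and each MiGS library left out.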

Additional observations from a re-analysis of the deposited data

How the results depend on the processing

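RNA-seq calls of the members kept their direction and their side of 2-fold under every scaling, count minimum and pseudocount tried and with deposited FPKM. The log2 ratio of Aim2 ranged from 0.40 to 0.54, that of Ifi204 from 3.97 to 4.11 and that of Mndal from 1.05 to 1.19 over these settings. The summed counts of the cluster had a log2 ratio of 2.26 with library totals and 2.21 with upper quartile scaling, against 2.35, as the median of all genes moved by -0.0889 and -0.137. Homeostatic microglia genes called lower numbered 5 with library totals or deposited FPKM and 6 with upper quartile scaling, against 3.

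MiGS replicate numbers give no pairing in the labels, and same-numbered libraries deviated together only weakly (correlation 0.118 across gene spans). With a replicate block, limma called 644 spans (12 higher and 632 lower) and edgeR 1724 (175 higher and 1549 lower), against 0 without it. With the block Ifi203 had an adjusted p of 0.295 with limma and 0.131 with edgeR, and Ifi213 of 0.132 with limma and 0.0579 with edgeR. Leaving out 1 MiGS library in turn gave 0 called spans each time, and a cluster difference between -4.62 and 0.0509 per kb. The windows left out for the strongest pile-up were chosen after seeing the data. Log2 changes of member spans that were near 0 turned sign. For Ifi202b the change was -0.46 with edgeR, -0.52 with DESeq2 and -0.0735 with a pseudocount of 4, and between -1.57 and 1.63 with 1 library left out. For Ifi205 it was 0.10 with edgeR, 0.0661 with DESeq2 and 0.0273 with edgeR and a replicate block, and between -0.49 and 0.32 with 1 library left out. For Ifi204 it was 0.0092 with edgeR and a replicate block, and between -1.01 and 0.80 with 1 library left out. The cause of these changes was not tested. Depth limits the members in both assays. Ifi204 and Ifi205 had 2 to 24 MiGS reads per library, and in RNA-seq Ifi205 had 1 naive count and Ifi202b none in either library. RNA-seq without replicates gives no measure of the spread between pools of mice.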
